A study of Homo sapiens with 10 samples.

Results

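The genes of cholesterol synthesis, uptake and efflux were compared between parental MCF10A cells and MCF10A cells without the histone variant H2A.X, on Affymetrix expression arrays, with 5 arrays in each group. A list of 42 genes was taken from the known pathway by symbol. For each gene the probe set named for it with the highest mean over the 10 arrays was used, which gave 28 measured genes of 42. The other 14 genes had no named probe set and were not analysed here. These were GGPS1, FDFT1, LSS, CYP51A1, SC5D, LRP8, NPC1, NPC2, NPC1L1, ABCA1, ABCG1, NR1H2, NR1H3 and CYP27A1.

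MCF10A is a non-tumorigenic, immortalized human breast epithelial line, and H2A.X is a form of histone H2A that is phosphorylated around DNA double-strand breaks. Both groups grew for 48 h in DMEM/F12 with 5% horse serum, 500 ng/ml hydrocortisone, 20 ng/ml EGF, 100 ng/ml cholera toxin, 10 µg/ml insulin and penicillin-streptomycin, so both had serum lipoproteins in the medium. The groups are labelled as parental (wild type for H2A.X) and as H2A.X knockout. The labels do not say how the knockout was made, whether it is 1 clone or several, or whether the 5 samples of a group came from separate cultures. The p-values therefore cover no more than the spread among these 10 samples, and that spread may be technical. The level of the targeted gene was not analysed here.

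Cells make cholesterol from acetyl-CoA through mevalonate, farnesyl diphosphate, squalene and a series of sterols, or take it up in lipoproteins through receptors of the low-density lipoprotein receptor family. When sterols in the endoplasmic reticulum run low, the chaperone SCAP carries the membrane-bound factor SREBP2 (gene SREBF2) to the Golgi, where it is cut, and its released part enters the nucleus and turns on the synthesis and uptake genes. INSIG proteins hold SCAP back when sterols are plentiful. Oxysterols at the same time activate the nuclear receptors LXRα and LXRβ, whose targets move cholesterol out of the cell (ABCA1, ABCG1) or lower its uptake (MYLIP).

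All values are log2 signals as the authors normalized them, and a difference is the knockout mean minus the parental mean on that scale, with its standard error and 95% interval from limma. A gene was called where the p-value adjusted by Benjamini-Hochberg over all 14884 measured genes was under 0.05. Array medians lay between 4.26 and 4.35. Arrays of 1 group correlated with each other at 0.991 to 0.996, and arrays of different groups at 0.975 to 0.979. Knockout array 1 stood apart from the other knockout arrays on the second principal component, which held 7.53% of the variance, with a score of 20.2 against -9.47 to -2.52. Results that rest on it are given with and without it. Markers of MCF10A cells, 5 measured of 10 listed, included basal and luminal keratins. Their summed signal was 11.93 to 12.06 in the parental arrays and 12.54 to 12.71 in the knockout arrays on the log2 scale. The members moved in opposite directions: 3 rose, 1 fell and 1 did not pass. All marker counts here are to be read beside the 15.3% of all genes that rose and the 19.0% that fell. The basal keratins KRT14 (8.26 to 10.85) and KRT5 (9.57 to 10.34) and the receptor EGFR (10.41 to 11.10) rose. The luminal keratin KRT18, the brightest of the list in parental arrays, fell from 10.65 to 9.72. KRT18 has 2 probe sets, of which only the brighter is given here. The identifier of this probe set falls among those of genes on chromosome 3, while KRT18 lies on chromosome 12. What it reports is therefore uncertain. Its partner KRT8, the dimmest of the list, differed by -0.35 (limma, adjusted p = 0.0668). Of fibroblast markers, 4 of 10 were measured, and their summed signal was 7.38 to 7.56 in parental and 8.49 to 8.77 in knockout arrays. DCN and FBLN1 rose, and LUM stayed dim at 3.17 and 3.08. Summed markers of macrophages (7 of 10 measured), adipocytes (6 of 8) and hepatocytes (7 of 8) had overlapping ranges in the 2 groups. Of the macrophage markers CSF1R (6.30 to 7.03) and CD36 (2.54 to 2.96, the dimmest) rose, and CD14 (4.87 to 4.11) and CD68 (8.24 to 7.88, the brightest) fell. Of the adipocyte markers only PPARG was called, falling from 5.36 to 4.75, and CFD and LPL were the brightest and dimmest at 6.15 and 2.89 in parental arrays. No hepatocyte marker was called, and TTR and ALB were the brightest and dimmest at 5.45 and 3.11 in parental arrays. RNA was taken from whole cultures, in which fewer cells of a type and less RNA per cell cannot be told apart.

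Most measured genes of cholesterol synthesis were higher in the knockout cells. Of the 15 measured synthesis genes, 12 rose, 0 fell and 3 did not pass the test, where 15.3% of all genes rose and 19.0% fell. The 12 genes rose by 1.48 to 3.41-fold, with adjusted p-values from 1.42e-09 to 3.40e-05. The list's median difference was 1.00, against 0.00 over all genes. In each of these 12 genes the 5 knockout arrays were all higher than the 5 parental ones, which was true of 12.2% of all genes. Of the 15, 7 rose at least 2-fold, as did 1.31% of all genes. The 8 measured genes from the making of acetoacetyl-CoA to farnesyl diphosphate, among them the paralogues IDI1 and IDI2, had 6 rising genes and a median difference of 0.98. The 7 measured genes from squalene to cholesterol also had 6, with a median of 1.00.

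ACAT2, the cytosolic thiolase that joins acetyl-CoA units into acetoacetyl-CoA at the head of the pathway, changed most. Its log2 signals were 6.79, 6.97, 7.16, 7.04 and 6.93 in parental arrays 1 to 5, and 8.76, 8.82, 8.78, 8.73 and 8.66 in knockout arrays 1 to 5. The knockout arrays were tightly grouped and all above the parental ones. The rise was 1.77 ± 0.07 (SE, n = 5 and 5), or 3.41-fold, with an interval of 1.62 to 1.92 that overlapped the interval of no other synthesis gene (limma, adjusted p = 1.42e-09). HMGCS1, which condenses acetoacetyl-CoA with a further acetyl-CoA to HMG-CoA, gave 7.03, 7.29, 7.01, 7.19 and 7.17 in parental and 8.32, 8.29, 8.29, 8.27 and 8.16 in knockout arrays. It rose 2.19-fold, by 1.13 ± 0.06 (adjusted p = 3.31e-08), and its knockout arrays spread less than its parental ones.

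The steps after mevalonate rose unequally. Mevalonate kinase, MVK, was 6.48, 6.43, 6.28, 6.47 and 6.33 in parental arrays and 6.87, 7.07, 7.01, 7.10 and 6.80 in knockout arrays, the least of the 12 rises at 0.57 ± 0.07 (adjusted p = 3.40e-05). PMVK, the kinase of the next step, gave 7.88, 7.79, 7.80, 7.89 and 7.80 against 7.58, 7.94, 7.99, 8.02 and 7.89. Knockout array 1 was the lowest of all 10 for PMVK and the other 4 were at or above the parental range. Its difference was 0.05 (95% interval -0.12 to 0.23, adjusted p = 0.668), and 0.13 without that array (adjusted p = 0.0803). MVD, the decarboxylase that makes isopentenyl diphosphate, was 6.71, 6.72, 6.85, 6.86 and 6.38 in parental and 7.76, 8.10, 8.11, 8.19 and 7.91 in knockout arrays. It rose 2.48-fold, by 1.31 ± 0.10 (adjusted p = 5.78e-07), so the genes on either side of PMVK rose while PMVK did not pass the test.

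IDI1, the isomerase that interconverts the isoprenoid building blocks, was 6.82, 6.92, 6.88, 7.01 and 6.62 in parental and 7.77, 7.74, 7.73, 7.59 and 7.61 in knockout arrays. All knockout values were above all parental values, and the rise was 1.78-fold (0.84 ± 0.07, adjusted p = 1.68e-06). Its neighbour and paralogue IDI2, a gene of restricted expression, was dim, with means of 4.31 and 4.23 at the percentiles 29.6 and 28.1 of all genes. IDI2 differed by -0.09 (interval -0.27 to 0.10, adjusted p = 0.495). FDPS, farnesyl diphosphate synthase, was 6.95, 6.84, 6.93, 7.10 and 6.88 in parental and 7.86, 8.16, 8.25, 8.21 and 8.19 in knockout arrays, with knockout array 1 lowest of its group but above every parental array. It rose 2.29-fold, by 1.19 ± 0.08 (adjusted p = 1.32e-07), and by 1.26 without that array. FDPS was the only measured member with several probe sets, and its other probe set rose by 1.34 ± 0.07. The identifier of that other probe set lies apart from the first, near that of PMVK, and the RNA gene RUSC1-AS1 overlaps FDPS. Whether it reports FDPS alone is therefore uncertain.

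Among the genes that turn squalene into cholesterol, SQLE, the squalene epoxidase that is a slow step of the pathway, was 8.49, 8.54, 8.49, 8.60 and 8.53 in parental arrays and 9.88, 9.82, 9.82, 9.72 and 9.86 in knockout arrays. The spread within either group was small beside the gap between them, and the rise was 2.45-fold (1.29 ± 0.05, adjusted p = 1.85e-09). NSDHL, a dehydrogenase that helps remove the methyl groups at carbon C4 of the sterol, was 7.60, 7.53, 7.71, 7.74 and 7.62 against 8.87, 8.79, 8.98, 8.96 and 8.86. It rose 2.38-fold (1.25 ± 0.06, adjusted p = 7.42e-09). EBP, the isomerase that shifts the ring double bond, was 7.49, 7.38, 7.41, 7.52 and 7.45 against 8.45, 8.46, 8.50, 8.50 and 8.41, a 2.02-fold rise (1.01 ± 0.05, adjusted p = 1.05e-08). In these 3 genes all knockout arrays were above all parental ones, as in 12.2% of all genes. Their means differed by over 1 log2 unit, and 1.31% of all genes rose at least 2-fold.

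DHCR7, the reductase that acts last in one branch of the pathway, was 8.80, 8.72, 8.82, 8.82 and 8.70 in parental and 9.66, 9.72, 9.84, 9.85 and 9.76 in knockout arrays. It rose by 1.00 ± 0.06 (adjusted p = 3.11e-08), just under the 2-fold line. TM7SF2, a sterol reductase of the endoplasmic reticulum, was 5.52, 5.14, 5.01, 5.17 and 5.14 against 5.96, 6.01, 6.25, 6.30 and 6.20, a rise of 0.95 ± 0.10 (adjusted p = 6.01e-06). It was the dimmest of the rising genes, at the percentile 44.9 of all genes in parental cells. MSMO1, the oxidase that starts removal of the C4 methyl groups, had the brightest probe set, at 10.42, 10.55, 10.44, 10.56 and 10.33 against 11.15, 11.09, 10.97, 11.03 and 11.01. It rose 1.51-fold (0.59 ± 0.06, adjusted p = 6.51e-06), and levels of different probe sets cannot be compared because each has its own response. HSD17B7, the keto-reductase of the same demethylation, ranged from 4.09 to 4.99 in parental and from 4.35 to 5.34 in knockout arrays. Its groups overlapped, and its difference of 0.37 had a wide interval of -0.04 to 0.79 (adjusted p = 0.164). HSD17B7 has closely related pseudogene copies, so its dim signal is uncertain.

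**Figure D1:**
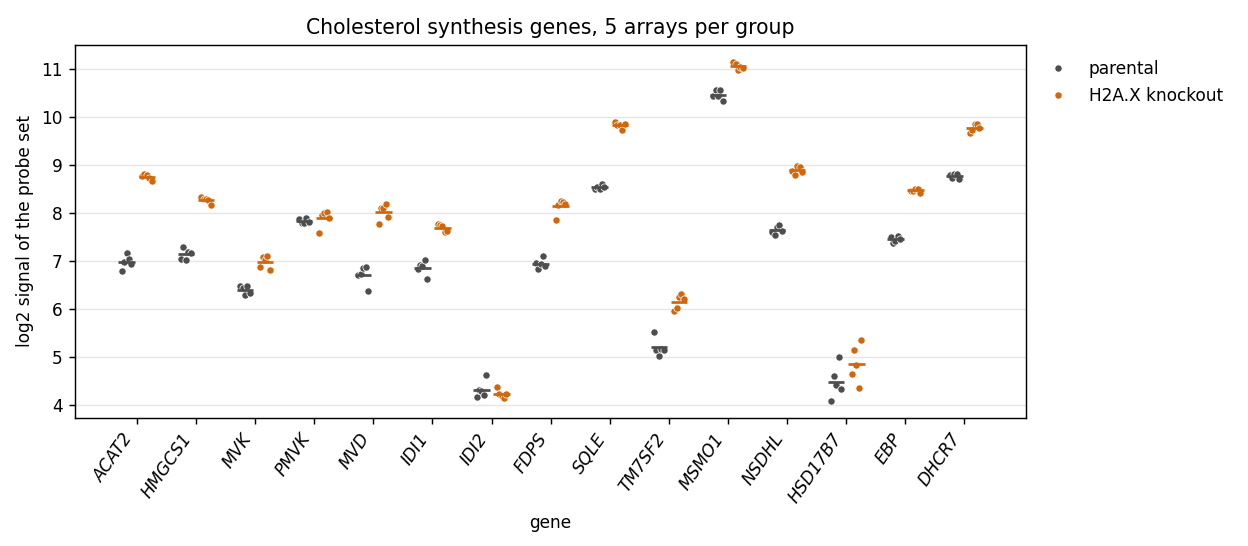
Log2 signal of the probe set (vertical axis) of the 15 measured synthesis genes (horizontal axis) in each of the 5 parental and 5 knockout arrays, 1 point per array, with the group means as bars. The groups are apart for 12 genes and overlap for PMVK, IDI2 and HSD17B7; the widest gap is that of ACAT2, from 6.98 to 8.75 in the means.

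The synthesis genes were compared array by array. The median over the 15 synthesis genes, each taken relative to its parental mean, lay between -0.06 and 0.07 in the parental arrays and was 0.92, 0.95, 1.05, 1.08 and 0.99 in knockout arrays 1 to 5. The same median over all genes stayed between -0.02 and 0.01 in every array. Parental array 4 had the highest synthesis median of its group, and 8 of the 12 rising genes had their highest parental value in it. The knockout arrays had no such common order: knockout array 1 held the highest knockout value for 4 of the 12 genes and the lowest for 4, and knockout array 4 the highest for 4 and the lowest for 2. The measured genes nearest to each of the 28 members, up to 10 on either side along the chromosome, had median differences between -0.10 (around ERLIN2) and 0.10 (around INSIG1).

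Among the sensing genes, the INSIG pair moved in opposite directions, and the genes of the factor itself did not pass the test. Of the 7 measured genes, 1 rose, 1 fell and 5 did not pass, with a median difference of -0.01. These counts are near the shares over all genes, of which 15.3% rose and 19.0% fell. INSIG1, the retention protein that is itself an SREBP2 target, was 6.82, 6.89, 7.19, 7.26 and 6.88 in parental and 8.33, 8.32, 8.52, 8.38 and 8.28 in knockout arrays. It rose 2.56-fold (1.36 ± 0.09, adjusted p = 1.28e-07), with all knockout arrays above all parental ones. INSIG2, its paralogue, was 7.81, 7.92, 7.76, 7.69 and 7.79 in parental arrays and 6.89, 7.21, 7.07, 7.01 and 6.89 in knockout arrays. All 5 knockout values were below all parental values, as for 16.0% of all genes, and INSIG2 fell by 0.78 ± 0.07, or 1.72-fold (adjusted p = 2.09e-06).

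SREBF2, which encodes SREBP2, was 7.91, 7.93, 7.94, 7.88 and 7.79 in parental and 7.75, 7.83, 7.95, 8.12 and 8.14 in knockout arrays. The knockout arrays spread wider and on both sides of the parental ones, and the difference was 0.06 (interval -0.11 to 0.24, adjusted p = 0.601), or 0.12 without knockout array 1. SREBF1, which encodes the related factors SREBP1a and SREBP1c, ranged from 6.93 to 7.15 in parental and from 6.70 to 7.16 in knockout arrays, with a difference of -0.04 (interval -0.22 to 0.13, adjusted p = 0.739) that was 0.02 without knockout array 1. SCAP, the escort, averaged 7.63 in both groups (difference 0.01, interval -0.10 to 0.12, adjusted p = 0.927). The intervals of these 3 genes leave out changes as large as those of INSIG1 and INSIG2, but arrays of messenger RNA do not measure the cutting of the SREBP proteins. ERLIN1 and ERLIN2, which form the membrane complex that helps degrade proteins of this pathway, differed by -0.01 (interval -0.15 to 0.12, adjusted p = 0.901) and -0.06 (interval -0.16 to 0.05, adjusted p = 0.450), with overlapping groups.

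Of the uptake genes, 2 of 6 were measured, and VLDLR had the largest fall of the 28. VLDLR, a receptor that takes up triglyceride-rich lipoproteins, was 5.35, 5.39, 5.52, 5.66 and 5.50 in parental and 3.85, 3.94, 3.90, 3.93 and 4.04 in knockout arrays. Every knockout array was below every parental array by over 1 log2 unit, and VLDLR fell by 1.55 ± 0.07, or 2.92-fold (adjusted p = 3.15e-09). Its knockout mean lay at the percentile 23.2 of all genes, below the medians of the arrays, so the size of the fold is uncertain. VLDLR-AS1, an antisense RNA of the same place, fell by 0.35 with overlapping groups (adjusted p = 0.00392). STARD4, a soluble protein that carries cholesterol between membranes and is a known SREBP2 target, ranged from 8.00 to 8.28 in parental and from 8.10 to 8.23 in knockout arrays. Its difference was 0.00 (interval -0.14 to 0.13, adjusted p = 0.986).

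The comparison of SREBP2 targets with LXR efflux genes rests on few genes on the LXR side. Of 26 listed synthesis and uptake genes, 17 were measured. Of these 17, 12 rose, 1 fell and 4 did not pass, where 15.3% of all genes rose and 19.0% fell. The 12 were all synthesis genes, and the median difference of the 17 was 0.95. Of the 5 LXR efflux genes only MYLIP was measured, and the transporters ABCA1 and ABCG1 were not analysed here. MYLIP, also called IDOL, is an LXR-induced ubiquitin ligase that marks lipoprotein receptors, VLDLR among them, for degradation. It was 5.75, 5.56, 5.73, 5.56 and 5.77 in parental and 5.64, 5.19, 5.23, 5.02 and 5.34 in knockout arrays. Knockout array 1 lay inside the parental range and the other 4 lay below it. MYLIP fell by 0.40 ± 0.10, or 1.32-fold (adjusted p = 0.00768), and by 0.48 without knockout array 1 (adjusted p = 0.000397). The synthesis and uptake median was thus 1.34 above the MYLIP difference, or 1.48 without that array. VLDLR fell, as MYLIP did, while 12 synthesis genes rose. Only 2 of 6 uptake genes were measured, and the other, STARD4, did not pass. The direction of uptake as a group is therefore not known here.

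**Figure D2:**
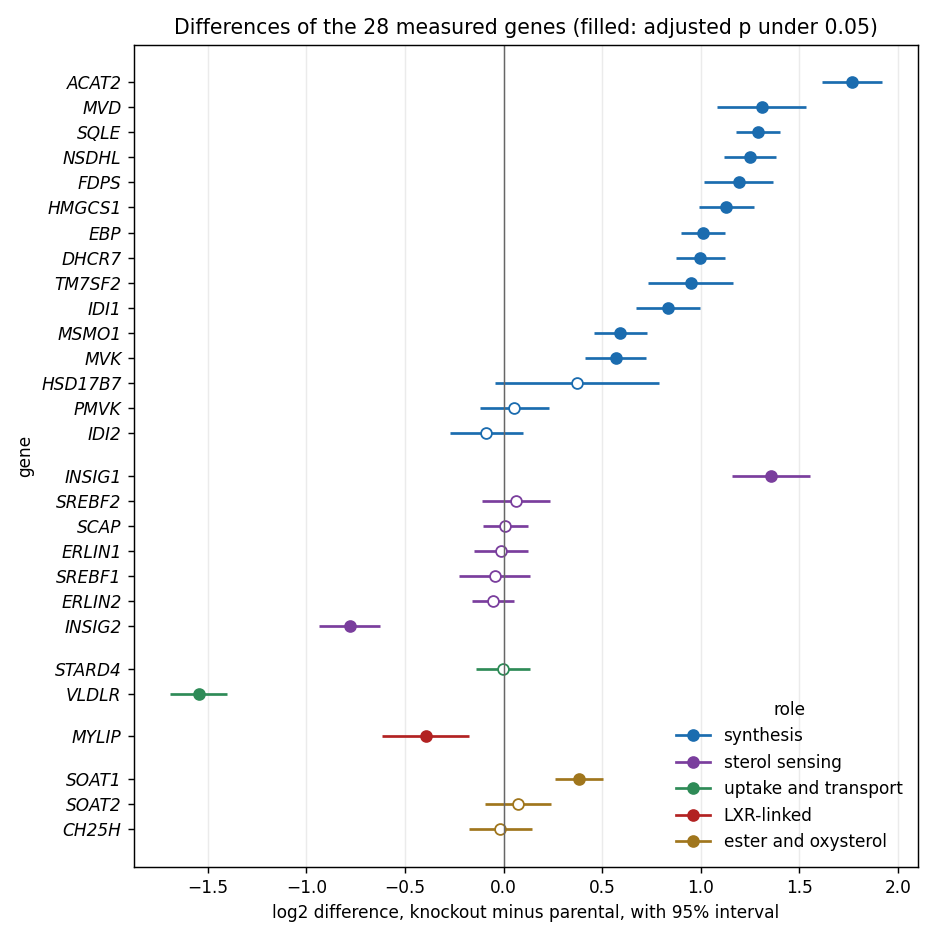
Log2 difference, knockout minus parental, with its 95% interval (horizontal axis) for the 28 measured genes (vertical axis), coloured by role and filled where the adjusted p was under 0.05. The 12 of 15 synthesis genes that rose lie to the right, between 0.57 and 1.77, as do INSIG1 and SOAT1. VLDLR at -1.55, INSIG2 at -0.78 and MYLIP at -0.40 lie to the left.

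Of the 3 measured genes of cholesterol esters and oxysterols, 1 rose and 0 fell, where 15.3% of all genes rose and 19.0% fell. These 3 genes are too few to be read as a group. SOAT1, the widely expressed enzyme that esterifies cholesterol for storage in droplets, was 8.58, 8.60, 8.62, 8.80 and 8.65 in parental and 9.00, 9.05, 9.07, 9.01 and 9.03 in knockout arrays. All its knockout values were above all parental values, as for 12.2% of all genes, and it rose 1.30-fold (0.38 ± 0.06, adjusted p = 0.000105). SOAT2, the isoenzyme of liver and intestine, differed by 0.07 (interval -0.09 to 0.24, adjusted p = 0.534). CH25H, which makes 25-hydroxycholesterol, was among the dimmest genes, at 2.88 and 2.86, and differed by -0.02 (interval -0.18 to 0.14, adjusted p = 0.904). Over the 28 measured members, 17 were called, where 34.3% of all genes were.

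**Figure D3:**
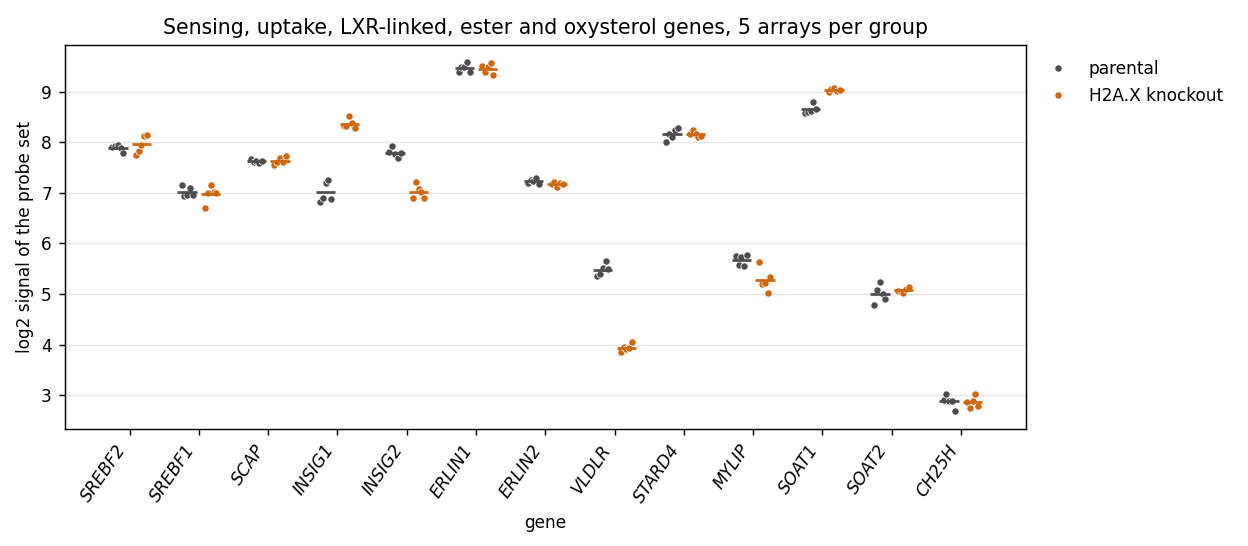
Log2 signal of the probe set (vertical axis) of the 13 measured genes of sensing, uptake, LXR efflux and esters (horizontal axis) in each parental and knockout array, 1 point per array, with group means as bars. The knockout points lie above the parental ones for INSIG1 and SOAT1 and below for INSIG2 and VLDLR; for MYLIP knockout array 1 lies within the parental points.

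Other genes of the pathway gave no common direction, and their counts are to be read beside the 15.3% of all genes that rose and the 19.0% that fell. Of 6 measured further synthesis and isoprenoid genes of 18 listed, 2 rose and 3 fell. ERG28, a scaffold of the sterol demethylation enzymes, rose by 0.81, and the mitochondrial thiolase ACAT1 rose by 0.58, while NUS1, a subunit of the dolichol-making transferase, fell by 0.45 and LBR, a sterol reductase of the nuclear envelope, fell by 0.40. Of 7 measured genes of SREBP transport and degradation of 12 listed, 1 rose and 4 fell. SURF4, a cargo receptor for export from the endoplasmic reticulum, fell by 0.46, FAF2 by 0.46, PAQR3, a Golgi anchor, by 0.28 and RNF145, a ubiquitin ligase, by 0.27. The gene that rose was UBXN8, by 0.24. Of 15 measured uptake and transport genes of 22, 4 rose and 5 fell. Here TMEM97, a membrane protein that binds NPC1 and is a known SREBP2 target, went from 7.27 ± 0.08 to 8.89 ± 0.17 (SD, n = 5 each), a rise of 1.61 (adjusted p = 1.03e-08). OSBPL5 and STARD5, which move sterols or lipids, rose by 0.65 and 0.47, and OSBPL6 fell by 0.48.

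Of 4 measured LXR partners and targets of 14 listed, 1 rose, and it was LPCAT3, an acyltransferase of phospholipids, with a difference of 0.44. The LXR target SREBF1 was described above and did not pass. Of 3 measured further oxysterol and ester genes of 11, CES1 rose by 0.34 and NCEH1, an ester hydrolase, fell by 0.25. With 1 to 4 genes measured, these lists say little about LXR activity either way.

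The fatty acid genes that SREBP1 is known to drive also rose. Of 11 measured genes of 12 listed, 9 rose and 1 fell, against 15.3% and 19.0% of all genes, with a median difference of 0.67. ACLY, which makes cytosolic acetyl-CoA, the substrate of both pathways, rose by 1.86, fatty acid synthase FASN by 1.75, the desaturase FADS2 by 1.25 and PNPLA3 by 1.11, while MID1IP1, an activator of acetyl-CoA carboxylase, fell by 0.25. Proliferation genes moved with them: 14 of 15 rose and 0 fell, against the same shares of all genes, with a median of 0.91. RRM2 and TYMS, which make DNA precursors, rose by 2.19 and 1.82, CCNA2, a cyclin, by 1.43 and PCNA, the replication clamp, by 1.25. Per knockout array the fatty acid median was 0.63 to 0.79 and the proliferation median 0.90 to 0.93. The part of proliferation in the rise of the synthesis genes was not tested, nor was that of the fibroblast markers above.

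**Figure D4:**
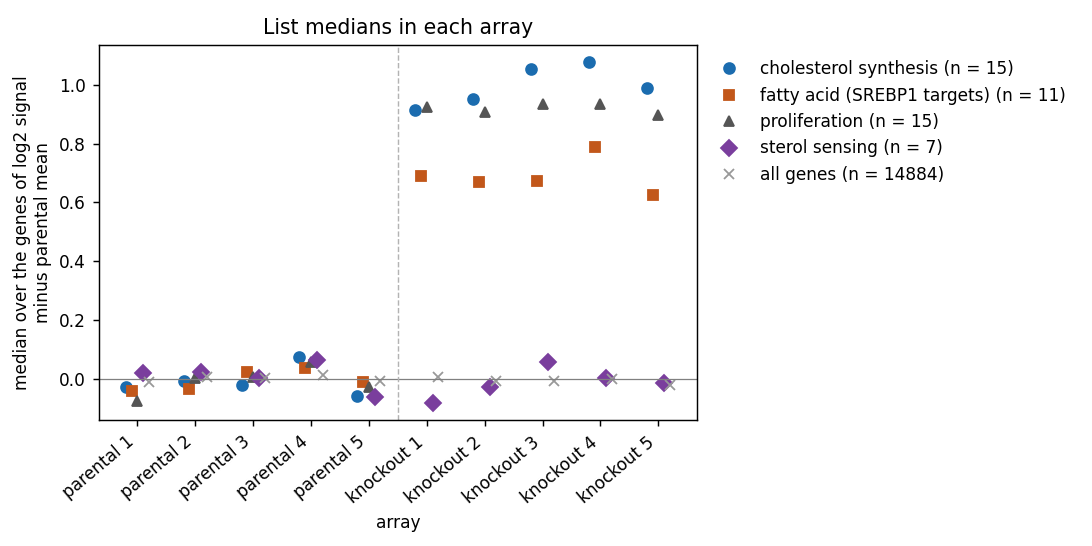
Median over the genes of a list of log2 signal minus parental mean (vertical axis) in each of the 10 arrays (horizontal axis), 1 symbol per list. The synthesis list lies at 0.92 to 1.08 in the knockout arrays, the fatty acid and proliferation lists also lie above 0, and the sensing list and all genes stay near 0.

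The promoters of the members were read from RefSeq (GRCh38.p14), in windows of 300 bases from 250 before to 50 after the annotated start. Of the 28 measured genes, 23 had an entry, and SQLE, ACAT2, ERLIN1, ERLIN2 and SOAT2 had none. The 5 motifs were searched on both strands. SREBP2 is known to bind sterol regulatory elements, searched as TCACNCCAC and as its last 8 letters CACNCCAC, and it often acts beside NF-Y, whose box is CCAAT. The E-box CACGTG can also bind SREBP proteins, and LXR binds a direct repeat, searched as GGTNA, 5 bases of any kind, GGTNA. A match to the longer sterol element is also a match to the shorter. The 250 bases before the start are shown for 2 genes that rose with several CCAAT boxes (MVD and NSDHL), the sensing gene that rose (INSIG1), the gene of the factor (SREBF2), a known target that did not pass (STARD4) and the falling LXR target (MYLIP). Capitals mark motif matches, and each sequence reads 5′ to 3′ on the strand of its gene.
MVD: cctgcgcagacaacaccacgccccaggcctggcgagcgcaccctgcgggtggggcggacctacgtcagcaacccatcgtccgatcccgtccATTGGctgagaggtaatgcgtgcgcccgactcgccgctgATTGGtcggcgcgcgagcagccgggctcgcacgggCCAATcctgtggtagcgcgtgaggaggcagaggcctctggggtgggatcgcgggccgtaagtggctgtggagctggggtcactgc
NSDHL: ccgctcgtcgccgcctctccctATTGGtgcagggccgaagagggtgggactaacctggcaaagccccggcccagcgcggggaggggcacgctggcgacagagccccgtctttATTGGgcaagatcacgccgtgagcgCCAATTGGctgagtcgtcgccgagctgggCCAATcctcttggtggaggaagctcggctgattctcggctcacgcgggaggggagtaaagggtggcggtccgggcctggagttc
INSIG1: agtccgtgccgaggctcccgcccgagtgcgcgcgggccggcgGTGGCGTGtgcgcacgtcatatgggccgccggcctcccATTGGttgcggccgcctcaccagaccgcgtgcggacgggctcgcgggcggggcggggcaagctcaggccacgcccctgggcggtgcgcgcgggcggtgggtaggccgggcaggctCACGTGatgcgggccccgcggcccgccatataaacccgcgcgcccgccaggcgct
SREBF2: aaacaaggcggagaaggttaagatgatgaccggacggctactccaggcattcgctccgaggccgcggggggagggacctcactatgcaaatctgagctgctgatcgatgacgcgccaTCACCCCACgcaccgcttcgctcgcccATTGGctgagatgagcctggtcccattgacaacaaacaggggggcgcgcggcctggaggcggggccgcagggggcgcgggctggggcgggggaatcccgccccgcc
STARD4: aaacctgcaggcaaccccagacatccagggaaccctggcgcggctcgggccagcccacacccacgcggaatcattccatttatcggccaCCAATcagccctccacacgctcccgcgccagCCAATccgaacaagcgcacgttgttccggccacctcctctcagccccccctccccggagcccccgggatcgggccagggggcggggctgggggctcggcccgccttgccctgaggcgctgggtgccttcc
MYLIP: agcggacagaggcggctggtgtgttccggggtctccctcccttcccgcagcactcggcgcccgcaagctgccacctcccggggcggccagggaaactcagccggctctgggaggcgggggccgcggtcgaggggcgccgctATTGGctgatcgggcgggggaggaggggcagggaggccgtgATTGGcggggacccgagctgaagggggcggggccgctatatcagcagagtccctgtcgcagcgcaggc

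MVD lies on the minus strand at chr16:88663092-88663341, with CCAAT boxes that begin at -159, -120 and -85 from the start. NSDHL lies on the plus strand at chrX:152830813-152831062 and holds 5 boxes, of which the pair at -113 and -110 overlap on opposite strands. In INSIG1, on the plus strand at chr7:155297628-155297877, the shorter sterol element begins at -208, a CCAAT box at -170 and an E-box at -55. SREBF2, on the plus strand at chr22:41832855-41833104, holds the only match to the longer sterol element among the 23 genes, at -133, and a CCAAT box at -106. STARD4 lies on the minus strand at chr5:111512536-111512785 with boxes at -161 and -130, and MYLIP on the plus strand at chr6:16128836-16129085 with boxes at -109 and -68. Of the genes shown, SREBF2 and STARD4, which did not pass, and MYLIP, which fell, thus also held CCAAT boxes in these windows.

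CCAAT boxes were common in the rising genes. All 10 rising synthesis genes with an entry held at least 1 in a window, where 39.7% of the 27305 genes in the RefSeq table did. By window, 11 of their 14 held a box, against 34.6% of all 35116. At least 2 boxes in a window were held by 9 of the 10, all but TM7SF2, against 12.9% of all genes, a count chosen after the matches were seen. Among the 3 falling members 1 held a box (MYLIP), and among the 8 with an entry that did not pass, 3 did (HSD17B7, SREBF2 and STARD4). The shorter sterol element was in 3 of the 23 genes, INSIG1, IDI1 and SREBF2 (13.0%), against 7.05% of all genes in the RefSeq table. The longer was in 1, SREBF2, against 1.39% of all genes. The E-box was in 2 of the 23, INSIG1 and SCAP (8.70%), near the 8.77% of all genes. The LXR repeat was in 1, HMGCS1, against 0.780% of all genes. A match to letters does not show that a factor binds, and no binding was measured here.

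**Figure D5:**
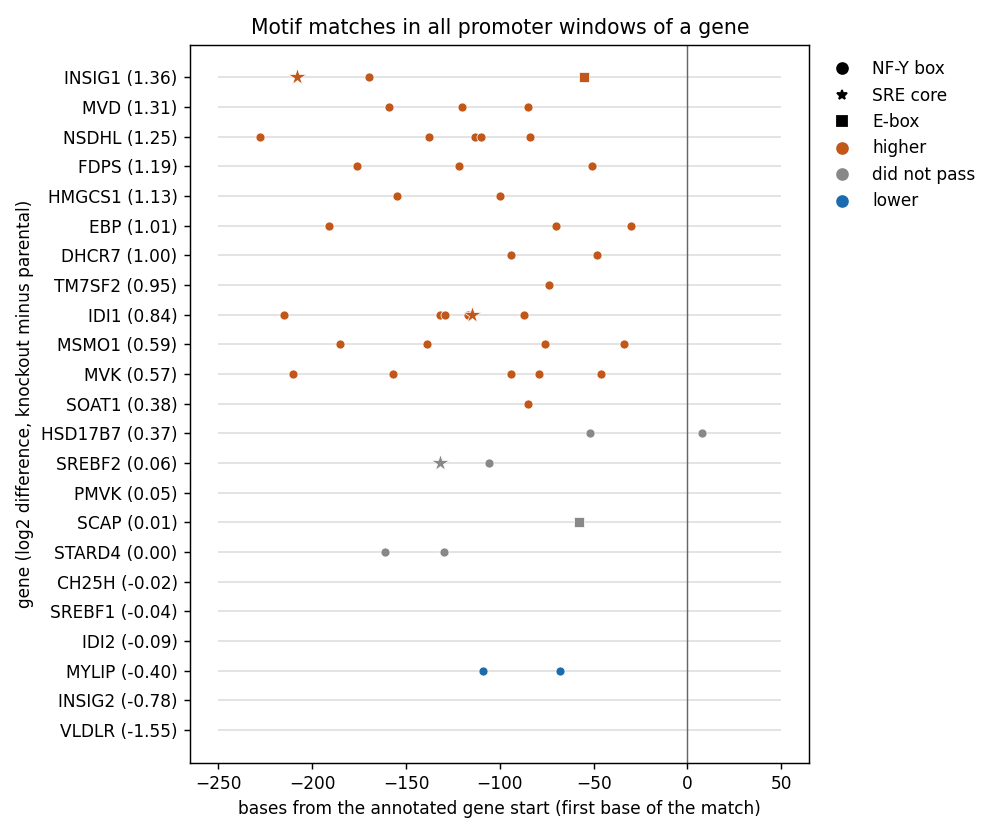
Distance of each motif match from the annotated start, in bases (horizontal axis), for the members with a promoter entry (vertical axis, with their log2 differences), 1 symbol per match to CCAAT (NF-Y box), the shorter sterol element (SRE core) or the E-box. CCAAT boxes fall before the start in the rising genes, up to 5 in 1 window (NSDHL and MVK). The boxes of IDI1 come from more than 1 window. Few members hold a sterol element or an E-box.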

How the data were processed

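RNA of 10 MCF10A samples, 5 parental and 5 H2A.X knockout by their labels, was labelled from 1 µg total RNA and hybridised to 1 array each. The deposited table holds a log2 signal for each probe set, which the authors made with Affymetrix Expression Console and Partek 6.6, per the submitters' processing notes; for summarisation, background correction and normalization no steps are recorded in the sources used here. The values were used as deposited. The number of arrays limits the precision, with a median standard error of 0.08 over genes. Of 53617 probe sets, 16098 had 1 gene symbol in the platform annotation, 0 had several and 37519 had none, and all 16098 matched the RefSeq table (GRCh38.p14) by Entrez identifier. For each of 14884 genes, 779 of which had several probe sets, the probe set brightest on average across the arrays was taken.

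Groups were compared with limma 3.58.1 (lmFit and eBayes, R 4.3.3) over all genes with no covariate, and p-values were adjusted by Benjamini-Hochberg. The fit was tested on simulated data. Every measured member is described by its role, and of each other list up to 4 called genes with the largest differences are named, with the highest and lowest of the marker lists. UBXN8 and MID1IP1, each the only called gene of its list to change in its direction, were named after their values were seen. The members and lists were chosen with earlier results of these data known, so their counts are descriptions. The labels give both groups replicate numbers 1 to 5. A check of shared deviations, given below, cannot show whether these numbers pair the samples, and the main fit used no pairing. Alternatives were quantile normalization, centring, a filter on dim genes, the mean of a gene's probe sets, a robust variance trend, a replicate block and each array left out. A comparison of member protein sequences was not run. The targeted gene and some genes of the pathway are not reported here. Summaries used Python 3.11.15, numpy 2.4.6 and pandas 2.3.3.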

Additional observations from a re-analysis of the deposited data

Results flagged for a closer look

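Of 56 sets of 5 arrays (28 genes in 2 groups), 1 held an array far from the others, where chance gives about 1 in 20. FDPS in knockout array 1 was 7.86, and the other 4 knockout arrays lay between 8.16 and 8.25. The gap was 0.760 of the group's range, above Dixon's 95% critical value for 5 values. The second probe set of FDPS, whose target is uncertain, gave 8.03 in that array and 8.06 to 8.33 in the others. Without any single array, the FDPS difference stayed between 1.16 and 1.26.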

How the results depend on the processing

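The 17 called members kept their direction and their side of the threshold in all 270 values over 16 alternatives. Of 172 values of the 11 members that did not pass, 16 changed sign, all close to 0. With quantile normalization ERLIN1 was 0.0183 and STARD4 0.0352, and with each array centred on its median STARD4 was 0.0015. Without single arrays the differences ran from -0.0904 to 0.0238 for SREBF1, -0.0143 to 0.0318 for SCAP, -0.0428 to 0.0180 for ERLIN1, -0.0412 to 0.0294 for STARD4 and -0.0648 to 0.0191 for CH25H. The median of the ester and oxysterol genes ran from 0.019 to 0.131 and the synthesis and uptake median minus MYLIP from 1.24 (without knockout array 4) to 1.48 (without knockout array 1). The filter on genes above the median level left VLDLR and MYLIP untested, so 1 member fell in place of 3, with 0 uptake and 0 LXR genes falling; the uptake median was then -0.002, from STARD4 alone, and the ester median 0.38, from SOAT1 alone. With a replicate block 14 members rose and 3 fell, and over all genes 2201 rose and 2771 fell, against 2273 and 2835. The deviations of same-numbered arrays correlated at -0.0144 to 0.199, and only numbers 1 and 3 were closest to their own number. Correlations of this kind cannot settle whether the samples were paired. Dim signal limits IDI2, HSD17B7, SOAT2, CH25H and the knockout level of VLDLR.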

Other observations

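MMAB, a gene of cobalamin metabolism that shares its start region with MVK, rose from 8.18 ± 0.14 to 8.82 ± 0.11 (SD, n = 5 each), by 0.63 ± 0.08 (limma, adjusted p = 2.95e-05), beside a rise of 0.57 in MVK. GTPBP4, a ribosome assembly gene that overlaps IDI2, fell by 0.37. Of the microRNA genes inside the SREBF introns, MIR33A in SREBF2 was dim and differed by 0.10 (adjusted p = 0.501). MIR33B in SREBF1 averaged 5.51 and 6.06, with overlapping groups (difference 0.55 ± 0.15, adjusted p = 0.0111), while SREBF1 did not pass. Signal from the host transcript and from the microRNA precursor cannot be told apart with these probe sets. These genes were chosen after their values were seen.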
